A study of Drosophila melanogaster with 18 samples.

Results

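Aminoacyl-tRNA synthetases are the enzymes that load each transfer RNA with its amino acid, and every protein made in the cytosol or in mitochondria depends on them. In animals most amino acids are served by separate nuclear genes for the cytosolic and the mitochondrial enzyme, while a few genes supply both compartments. The genes described here are all entries of the deposited gene table whose FlyBase symbol is a three-letter amino acid code followed by RS, such as AlaRS, GluProRS or beta-PheRS, with or without the suffix -m for mitochondrial. The rule found 35 of 17753 gene entries. Of these, 20 carry no suffix and are called cytosolic below, and 15 carry -m. Any gene without the suffix that supplies both compartments is thus counted as cytosolic. Glutamine, glycine, histidine, lysine and threonine are the 5 amino acids with no -m gene in the table. All 35 genes passed the filter on low counts and were among the 8699 genes tested.

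RNA was measured in DL1 cells, a haemocyte-like (blood cell) line of Drosophila melanogaster, in 18 libraries. There were 6 groups of 3 libraries, and each group had 1 library in each of the biological sets lettered A, B and C. One group was a Mock treatment; the other 5 received double-stranded RNA (dsRNA), 2 µg in the medium, and all were harvested after 3 days. All cells had the same WT genotype. The control dsRNA was against B-gal; the others were against IntS4 and IntS6, both subunits of the Integrator complex that cleaves nascent RNA, against mts, the catalytic subunit of protein phosphatase 2A (PP2A), or against Pp2A-29B, the PP2A scaffold subunit. The comparison asks how the RNA of these genes differed when an Integrator or a PP2A subunit was targeted.

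Totals ran from 13445318 to 19298644 counts per library, of which ribosomal RNA took 65.1% to 74.8%, leaving 3545828 to 6325688 other counts. The share of ribosomal RNA was 73.0% to 74.8% with mts dsRNA and 66.3% to 71.8% with B-gal dsRNA; its part in the results was not tested beyond a fit without those genes. Replicate libraries correlated at 0.978 to 0.991. Both PP2A genes were called lower in the libraries labelled IntS4 and IntS6 dsRNA than with B-gal dsRNA. There mts was at 70.15% and 70.4% of the B-gal level and Pp2A-29B at 77.3% and 79.7%. The targeted gene was at 42.6% of the B-gal level in the mts libraries and at 29.2% in the Pp2A-29B libraries. It was higher than with B-gal dsRNA in the libraries labelled IntS4 dsRNA (98.8 against 12.1 CPM, counts scaled to library depth) and in those labelled IntS6 dsRNA (83.9 against 29.8 CPM), with the library of set A the highest of each (227.0 and 150.3 CPM), so those 2 groups are named by their labels. All 10 haemocyte markers were detected, some of them barely. The B-gal libraries held 1, 2 and 5 counts of Sr-CI and 2, 2 and 9 of NimC1. Of the 3 neuron markers elav averaged 16.03 CPM there, but nSyb and brp only 0.217 and 0.042 CPM. The summed level of the 10 haemocyte markers was 218.5 to 237.2 CPM with B-gal dsRNA. It was 845.7 to 1234 CPM with IntS4 and 837.1 to 1127 CPM with IntS6 dsRNA. With mts dsRNA it was 470.7 to 520.7 CPM and with Pp2A-29B dsRNA 397.9 to 434.8 CPM. Summed levels of 4 lamellocyte markers moved the same way, from 107.3 to 146.9 CPM with B-gal dsRNA to between 224.8 and 864.7 CPM in the other 4 dsRNA groups. Of these markers, atilla and ItgaPS4 averaged 0.563 and 0.075 CPM with B-gal dsRNA. They were at 0.798 and 1.18 CPM with IntS4 and 0.930 and 1.51 CPM with IntS6 dsRNA. With mts dsRNA they reached 51.7 and 106.0 CPM, and with Pp2A-29B dsRNA 14.4 and 25.4 CPM. PPO3 and mys, at 5.69 and 114.2 CPM with B-gal dsRNA, averaged 208.8 and 182.7 CPM with IntS4 and 61.4 and 190.6 CPM with IntS6 dsRNA. Within the haemocyte sum Hml, a plasmatocyte adhesion protein gene, went from a mean of 2.86 CPM with B-gal dsRNA to 609.1, 601.0, 115.2 and 63.5 CPM with IntS4, IntS6, mts and Pp2A-29B dsRNA. The haemocyte transcription factor gene srp stood at 122.4 CPM with B-gal and 118.7 CPM with mts dsRNA, and the receptor gene eater at 44.19 CPM with B-gal and 43.76 CPM with IntS4 dsRNA. The 2 ovarian follicle markers went the other way, from a sum of 151.6 to 174.6 CPM with B-gal dsRNA to 64.44 to 82.75 CPM with IntS4, 75.03 to 106.4 CPM with IntS6, 31.04 to 39.7 CPM with mts and 45.27 to 56.77 CPM with Pp2A-29B dsRNA. The part of these shifts in the results below was not tested, and in bulk RNA fewer cells of a type and less RNA per cell cannot be told apart.

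In control cells the cytosolic genes lay well above the mitochondrial ones by their medians, but the 2 ranges overlapped. PheRS-m, AspRS-m and TrpRS-m lay within the range of the cytosolic genes. Per length, as CPM per kilobase of annotated exon with B-gal dsRNA, the median was 19.3 over the cytosolic genes and 2.46 over the mitochondrial genes. ThrRS was the highest cytosolic gene at 55.9 ± 4.17 (SD, n = 3) and HisRS the lowest at 5.80 ± 1.05. AspRS, AsnRS and LysRS followed ThrRS at 36.0, 33.0 and 32.2, and the ranges of their libraries overlapped. Among mitochondrial genes PheRS-m (13.9 ± 2.28), AspRS-m (12.5 ± 0.139) and TrpRS-m (9.07 ± 0.357) stood apart from the other 12, of which AlaRS-m was the highest at 3.90 and GluRS-m the lowest at 0.683. Next to each other in these orders, 13 of 19 cytosolic pairs and 9 of 14 mitochondrial pairs had overlapping libraries, so most neighbours did not differ beyond their spread. The low mitochondrial level limits precision: the median standard error of a log2 fold change with IntS4 dsRNA was 0.17 for mitochondrial genes and 0.11 for cytosolic genes, and GluRS-m had only 13 to 34 counts per library.

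**Figure D1:**
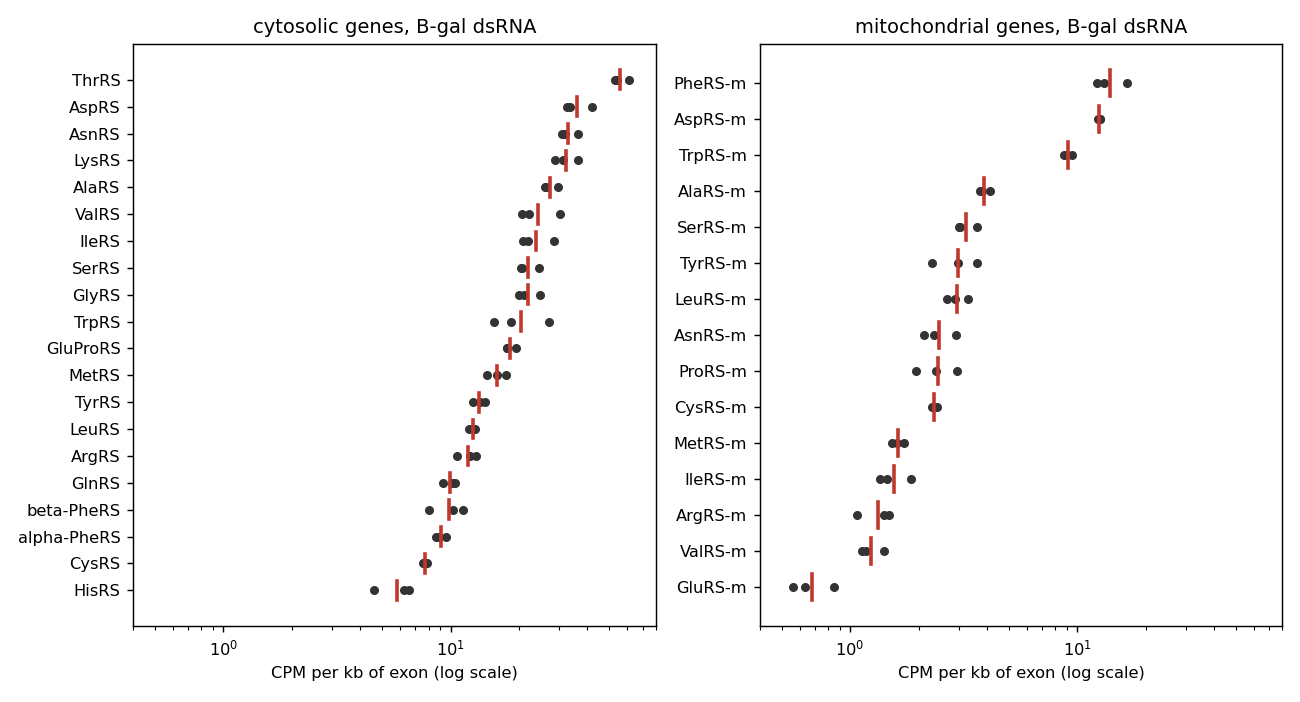
Levels of the 20 cytosolic (left) and 15 mitochondrial (right) synthetase genes with B-gal dsRNA, in CPM per kilobase of exon on a log axis. Points are the 3 libraries and red bars their mean; the cytosolic genes run from 5.80 (HisRS) to 55.9 (ThrRS) and the mitochondrial genes from 0.683 (GluRS-m) to 13.9 (PheRS-m).

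The control dsRNA by itself did not change any of the 35 genes detectably. Between B-gal and Mock, edgeR's quasi-likelihood test called 0 of 20 cytosolic and 0 of 15 mitochondrial genes at an adjusted p (Benjamini-Hochberg over all genes tested) under 0.05, and none of them reached an unadjusted p under 0.05. Over all 8699 genes 0% were called in this comparison, 243 genes had an unadjusted p under 0.05, and DESeq2 called 0. The small cytosolic changes leaned to the lower side: 18 of 20 lay below 0, with a median log2 fold change of -0.07. The level summed over the 20 cytosolic genes in Mock was 104.8% of that with B-gal dsRNA, on the means. This offset was not tested. Set against Mock, the rises of that sum described below are smaller.

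The summed level of cytosolic synthetase RNA lay above the controls in all 4 target dsRNA groups, and that of mitochondrial synthetase RNA lay at or below them. The summed cytosolic level was 1125, 1188 and 1266 CPM in the Mock libraries of sets A, B and C and 1094, 1093 and 1228 CPM with B-gal dsRNA. It was 1671, 1736 and 1619 CPM with IntS4, 1570, 1562 and 1583 CPM with IntS6, 1656, 1676 and 1558 CPM with mts and 1288, 1343 and 1280 CPM with Pp2A-29B dsRNA. No library of these 4 groups overlapped the controls; the means were 147.2%, 138.1%, 143.2% and 114.6% of the B-gal mean of 1138 ± 77.5 CPM (SD, n = 3). The summed mitochondrial level was 165.9 ± 5.48 CPM with B-gal dsRNA and 165.9 ± 8.06 CPM in Mock. It came to 158.9 ± 3.02 CPM with IntS4 and 159.4 ± 7.94 CPM with mts dsRNA, and to 144.9 ± 1.75 CPM with IntS6 and 143.3 ± 3.59 CPM with Pp2A-29B dsRNA. The IntS6 and Pp2A-29B libraries all lay below the controls, whereas the IntS4 libraries overlapped Mock and the mts libraries overlapped both controls. The sums weigh the abundant genes most and were not tested.

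**Figure D2:**
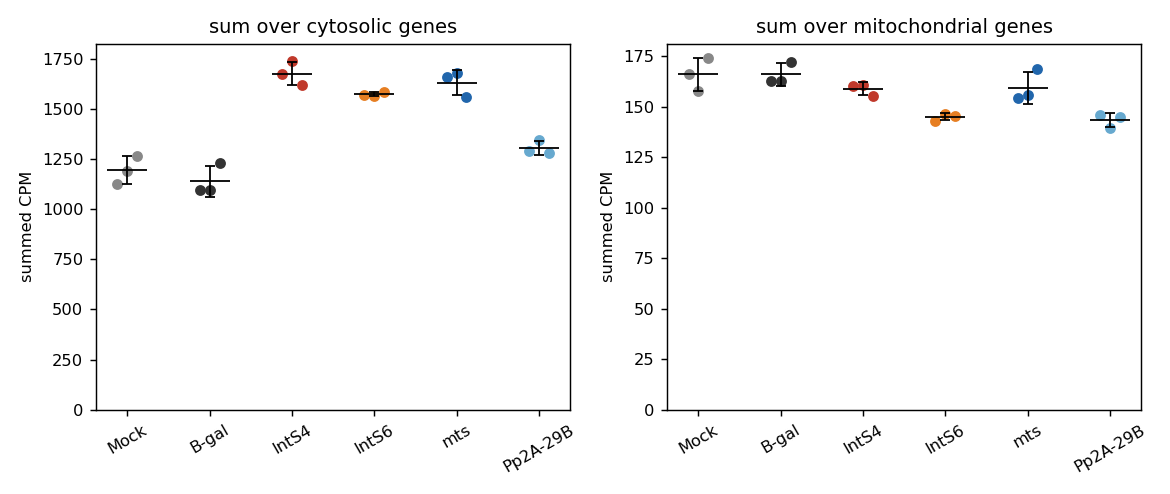
Summed CPM over the 20 cytosolic (left) and 15 mitochondrial (right) genes in each of the 18 libraries. Points are libraries of sets A, B and C, horizontal marks the mean and bars the SD (n = 3); the cytosolic sum is 1138 with B-gal dsRNA and 1304 to 1675 in the 4 target dsRNA groups, the mitochondrial sum 165.9 and 143.3 to 159.4.

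Gene by gene, cytosolic synthetases were mostly called higher with IntS4, IntS6 and mts dsRNA, and fewer of them with Pp2A-29B dsRNA. Mitochondrial synthetases were mostly not called. With IntS4 dsRNA 13 of 20 cytosolic genes were called higher and 1 lower, against 27% of all genes tested higher and 20.2% lower. IntS6 dsRNA gave 12 higher and 0 lower (all genes, 26.4% and 19.3%), mts dsRNA 18 higher and 0 lower (26.6% and 24.8%), and Pp2A-29B dsRNA 8 higher and 0 lower (21% and 17.8%). The median cytosolic log2 fold change was 0.45, 0.38, 0.47 and 0.26 in that order, while the median over all genes tested lay between -0.01 and 0.00 each time. Of the 15 mitochondrial genes 0 were called higher and 2 lower with IntS4, 0 and 2 with IntS6, 1 and 2 with mts, and 0 and 5 with Pp2A-29B dsRNA, with medians of -0.13, -0.11, 0.04 and -0.14. Beside the counts of 0, cytosolic genes with an unadjusted p under 0.05 in the lower direction numbered 1, 0 and 0 with IntS6, mts and Pp2A-29B dsRNA, and mitochondrial genes in the higher direction 1, 0 and 0 with IntS4, IntS6 and Pp2A-29B dsRNA. DESeq2 called 13, 12, 19 and 9 cytosolic genes higher and 0 mitochondrial genes higher in all 4. In the IntS4 and IntS6 comparisons samples with the same set letter deviated together. With the set letter fitted as a replicate block HisRS (0.39) was also called higher with IntS4 dsRNA. With IntS6 dsRNA the block added alpha-PheRS (0.235) and LeuRS (0.235) higher and beta-PheRS (-0.28) lower. The IntS6 count of 0 lower therefore did not hold with the block. With the replicate block the mitochondrial count for IntS4 dsRNA was 4 instead of 2 (1 higher, 3 lower). That count was also 4 without B-gal set B. The Pp2A-29B calls rested most on single libraries: 3 of the 8 cytosolic calls and 0 of the 5 mitochondrial calls passed without each library in turn, against 13 of 14 cytosolic calls with IntS4, 11 of 12 with IntS6 and 14 of 18 with mts dsRNA. Without Pp2A-29B set C the cytosolic count was 4, and the mitochondrial count was 1 without Pp2A-29B set B, 2 without B-gal set C or Pp2A-29B set A or C and 3 without B-gal set A or B.

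**Figure D3:**
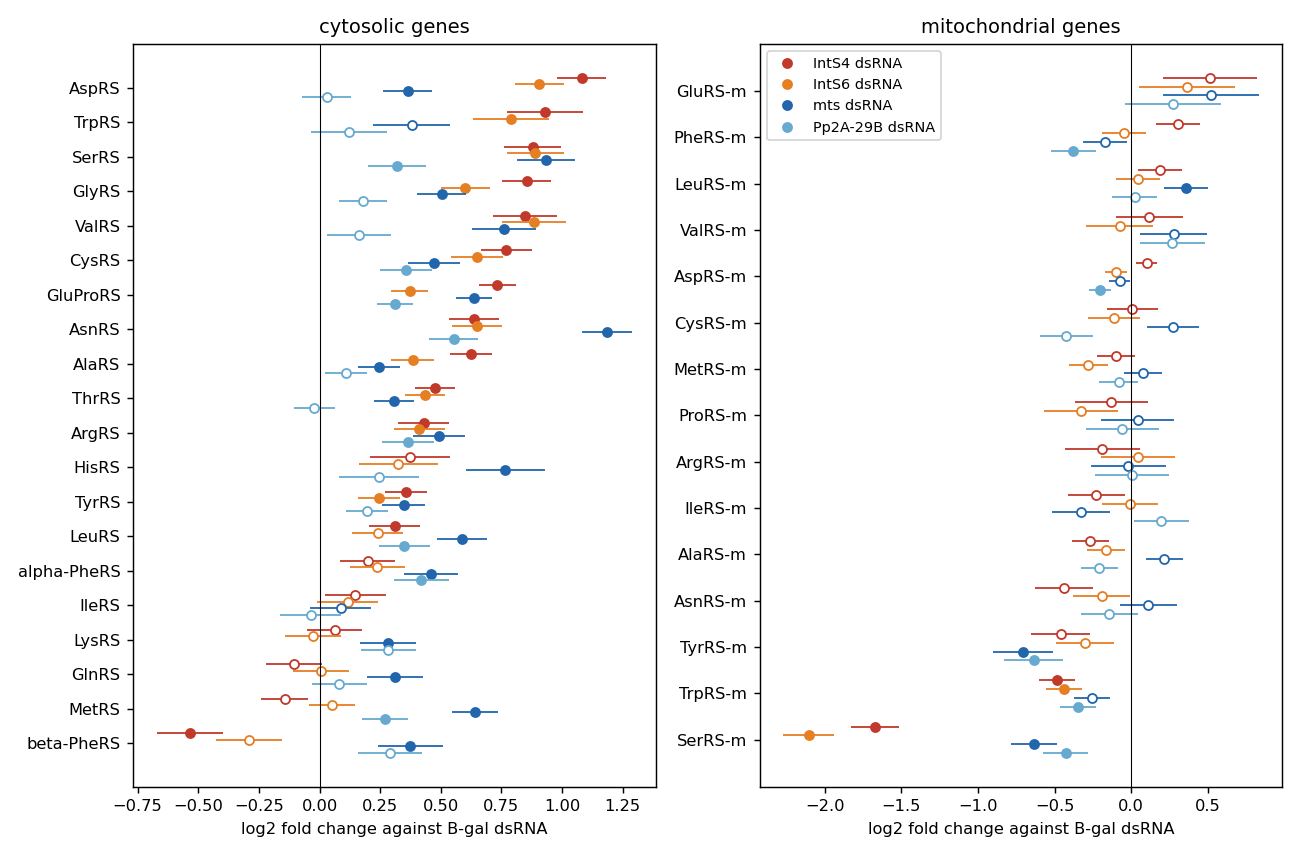
Log2 fold change against B-gal dsRNA, with its standard error as a bar, for each cytosolic (left) and mitochondrial (right) gene and each of the 4 target dsRNA groups; filled points have an adjusted p under 0.05 and genes are ordered by the IntS4 value. Most cytosolic points lie above 0, up to 1.19 (AsnRS, mts dsRNA), while mitochondrial points lie on both sides of 0 and SerRS-m reaches -2.11 with IntS6 dsRNA.

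Over the 4 comparisons, which share the B-gal libraries, 5 cytosolic genes were called higher in all 4, 7 in 3, 3 in 2 and 4 in 1. Of all 8699 genes tested 10.4% were called higher in all 4, 5.9% in 3, 15.5% in 2 and 10.6% in 1. The 5 called in all were AsnRS, SerRS, GluProRS, CysRS and ArgRS. The one gene called in none was IleRS, the isoleucine enzyme, whose log2 fold changes ran from -0.04 to 0.15. It was also among the more abundant genes, at 92.6 ± 16.5 CPM (SD, n = 3) with B-gal dsRNA and 90.4 to 102.6 CPM in the target dsRNA groups.

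AsnRS, which charges the asparagine tRNA, responded most to mts dsRNA. Its level was 75.4, 73.6 and 86.2 CPM with B-gal dsRNA in sets A, B and C. It was 191.5, 195.8 and 147.5 CPM with mts, 125.4, 123.7 and 116.7 CPM with IntS4, 124.2, 129.9 and 114.9 CPM with IntS6 and 110.0, 117.9 and 117.2 CPM with Pp2A-29B dsRNA. Every library of these 4 groups lay above every control library, and the mts libraries lay above all the rest. The log2 fold changes were 1.19 (SE 0.10, adjusted p = 4.1e-08) with mts, 0.64 and 0.65 with IntS4 and IntS6, and 0.55 (SE 0.10, adjusted p = 0.00032) with Pp2A-29B dsRNA. Compared directly, mts dsRNA was higher than IntS4 by 0.55 (adjusted p = 0.00019), higher than IntS6 by 0.54 (adjusted p = 0.00026), and Pp2A-29B was lower than mts, at -0.63 (adjusted p = 0.001).

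SerRS, the cytosolic serine enzyme (chromosome 2L, 3035493 to 3037403, minus strand, dm6 build), rose about equally with 3 of the dsRNAs. It stood at 46.9, 39.3 and 39.2 CPM with B-gal dsRNA, at 79.97, 85.5 and 64.7 CPM with IntS4, at 80.8, 64.7 and 86.6 CPM with IntS6 and at 81.6, 77.4 and 80.3 CPM with mts dsRNA. Those 3 groups overlapped each other and lay above all controls. Their log2 fold changes were 0.88, 0.89 and 0.93 (SE 0.12 each, adjusted p from 3.6e-06 to 6.1e-06). With Pp2A-29B dsRNA the libraries held 49.1, 49.0 and 58.4 CPM and the change was 0.32 (adjusted p = 0.04), a call that was lost without B-gal set B (0.28), B-gal set C (0.28) or Pp2A-29B set C (0.23).

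GluProRS, a single protein with both the glutamate and the proline enzyme, rose by 0.73 (SE 0.07, adjusted p = 1.6e-07) with IntS4, 0.37 with IntS6, 0.64 with mts and 0.31 (adjusted p = 0.0027) with Pp2A-29B dsRNA. From 96.1, 96.5 and 105.5 CPM with B-gal dsRNA it went to 165.8, 169.4 and 160.5 CPM with IntS4 and 128.9, 130.3 and 126.3 CPM with IntS6 dsRNA. It was the only synthetase gene called between those 2 groups (log2 -0.36 for IntS6 against IntS4, adjusted p = 0.0041). An antisense RNA gene, asRNA:CR46092, overlaps 905 of its exon bases on the other strand, and the sources used here do not give the strand setting of the counting. CysRS, for cysteine, changed by 0.77, 0.65, 0.47 and 0.36, and ArgRS, for arginine, by 0.43, 0.41, 0.49 and 0.37, in the order IntS4, IntS6, mts, Pp2A-29B. With Pp2A-29B dsRNA the CysRS call was lost without set C of that group (0.30), and the ArgRS call without its set C (0.29) or B-gal set C (0.29).

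AspRS and TrpRS were higher in the libraries labelled IntS4 and IntS6 dsRNA than with mts dsRNA. For TrpRS the call against IntS6 dsRNA rested on single libraries. AspRS, the aspartate enzyme, held 73.8, 75.6 and 95.4 CPM with B-gal dsRNA, 173.8, 174.3 and 170.1 CPM with IntS4 and 155.4, 143.4 and 160.1 CPM with IntS6 dsRNA. With mts dsRNA it held 106.8, 105.3 and 102.9 CPM, and with Pp2A-29B dsRNA 81.1, 89.6 and 79.5 CPM, the latter overlapping the controls. The log2 fold changes were 1.08 (SE 0.10, adjusted p = 5.4e-08), 0.91 (adjusted p = 6.4e-07), 0.36 (adjusted p = 0.0059) and 0.03 (adjusted p = 0.85). The direct differences passed as well: mts against IntS4 was -0.72 (adjusted p = 1e-05) and mts against IntS6 -0.54 (adjusted p = 0.00021). AspRS lies at 12877004 to 12883168 on the plus strand of chromosome 2R (dm6), where its exons overlap asRNA:CR45141 over 1448 bases and Nmda1 over 127 bases on the other strand and asRNA:CR43468 over 154 bases on its own strand, and 44.4% of its 18 deposited values were whole numbers, so its level is uncertain to the extent that reads were split. Nmda1 rose too, by 0.66, 0.48, 0.81 and 0.32 with IntS4, IntS6, mts and Pp2A-29B dsRNA. With B-gal dsRNA asRNA:CR45141 averaged only 0.023 CPM and asRNA:CR43468 1.75 CPM. AsnRS, with no same-strand exon overlap, also had only 61.1% whole values, and the source of the split values was not tested.

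TrpRS, for tryptophan, followed the same order as AspRS. It held 26.2, 31.1 and 45.5 CPM with B-gal dsRNA, 60.3, 64.0 and 71.9 CPM with IntS4 and 57.0, 64.4 and 56.8 CPM with IntS6 dsRNA, without overlap. The changes were 0.93 (SE 0.16, adjusted p = 7.2e-05) and 0.79 (adjusted p = 0.00039), against 0.38 with mts (adjusted p = 0.051; 0.048 with DESeq2) and 0.12 with Pp2A-29B dsRNA (adjusted p = 0.58). Without B-gal set C, the highest of the B-gal libraries, both passed, at 0.64 (adjusted p = 0.00085) and 0.38 (adjusted p = 0.036). Directly, mts was below IntS4 by a log2 difference of -0.55 (adjusted p = 0.0063), and below IntS6 by -0.41 (adjusted p = 0.035, and 0.051 with DESeq2). The call against IntS6 was lost whichever library of either group was left out. GlyRS, for glycine, which in animals commonly supplies both compartments from a single gene, rose by 0.85 (SE 0.10, adjusted p = 1.1e-06), 0.60 and 0.50 with IntS4, IntS6 and mts dsRNA and stood at 0.18 (adjusted p = 0.17) with Pp2A-29B dsRNA. ValRS, for valine, rose by 0.85, 0.88 (SE 0.13, adjusted p = 2.3e-05) and 0.76 with the same 3 dsRNAs and stood at 0.16 (adjusted p = 0.36) with Pp2A-29B dsRNA, where it passed without B-gal set C (0.35, adjusted p = 0.032); the direct difference between Pp2A-29B and mts was -0.60 (adjusted p = 0.0096). AlaRS (0.62, 0.38 and 0.25) and ThrRS (0.48, 0.44 and 0.31), for alanine and threonine, were called in the same 3 comparisons and lay at 0.11 and -0.02 with Pp2A-29B dsRNA. The AlaRS call with mts dsRNA was lost without B-gal set A (0.22) or B (0.21) or mts set B (0.22) or C (0.24).

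MetRS and the beta subunit gene of the phenylalanine enzyme were higher with mts than with IntS4 or IntS6 dsRNA. MetRS, which also charges the initiator tRNA, held 49.1, 59.5 and 54.3 CPM with B-gal dsRNA, 47.9, 54.7 and 44.7 CPM with IntS4 and 56.0, 58.0 and 55.0 CPM with IntS6 dsRNA, all overlapping. With mts dsRNA it held 83.4, 87.4 and 83.2 CPM, above every other library, a log2 change of 0.64 (SE 0.09, adjusted p = 1.9e-05). The direct differences of mts from IntS4 (0.78, adjusted p = 1.8e-06) and from IntS6 (0.59, adjusted p = 4.8e-05) passed. With Pp2A-29B dsRNA MetRS changed by 0.27 (adjusted p = 0.031), a call that was lost without B-gal set A (0.20) or C (0.27) or Pp2A-29B set B (0.23) or C (0.28).

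The cytosolic phenylalanine enzyme is built of an alpha and a beta subunit from separate genes, of which only the beta gene was called lower anywhere. beta-PheRS held 22.2, 20.2 and 15.7 CPM with B-gal dsRNA, 14.0, 15.0 and 11.0 CPM with IntS4 and 25.2, 27.1 and 22.7 CPM with mts dsRNA. It was the only cytosolic gene called lower in any of the 4 comparisons, at -0.53 (SE 0.14, adjusted p = 0.0034) with IntS4 dsRNA, and the call passed without each library. With IntS6 dsRNA it stood at -0.29 (adjusted p = 0.088; the replicate block gave 0.022). It was called there without B-gal set C (-0.43). With mts dsRNA it was called higher at 0.37 (adjusted p = 0.026), although not without B-gal set C (0.24) or mts set A (0.37) or B (0.31). Directly, mts exceeded IntS4 by 0.91 (adjusted p = 2.1e-05) and IntS6 by 0.67 (adjusted p = 0.00048). alpha-PheRS stood at 0.20 and 0.24 with IntS4 and IntS6 dsRNA (adjusted p = 0.16 and 0.095; 0.045 with the replicate block for IntS6) and rose by 0.46 (adjusted p = 0.0023) with mts and 0.42 (adjusted p = 0.0061) with Pp2A-29B dsRNA. Directly, mts exceeded IntS4 by 0.26 (adjusted p = 0.059) and IntS6 by 0.22 (adjusted p = 0.11) for alpha-PheRS, neither called; both passed without mts set C (0.37 and 0.33), and the former also with RLE size factors, the replicate block, no filter or no ribosomal RNA genes. The difference between the 2 subunits' changes was not tested.

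Of the remaining cytosolic genes, LeuRS, for leucine, rose by 0.59 with mts (adjusted p = 0.00014), 0.35 with Pp2A-29B and 0.31 with IntS4 dsRNA and stood at 0.24 with IntS6 dsRNA (adjusted p = 0.07, and 0.02 when the set letter was fitted as a replicate block), and TyrRS by 0.36, 0.25 and 0.35 with IntS4, IntS6 and mts dsRNA. The LeuRS call with IntS4 dsRNA was lost without B-gal set B (0.28) or IntS4 set A (0.29) or B (0.23), and that with Pp2A-29B dsRNA without its set B (0.27). The TyrRS call with IntS6 dsRNA was lost without B-gal set A (0.20) or C (0.25) or IntS6 set A (0.20) or B (0.23). GlnRS (0.31) and HisRS (0.77, SE 0.16, adjusted p = 0.00076) were called with mts dsRNA alone, which by itself does not show a difference from the other groups; HisRS stood at 0.37 with IntS4 dsRNA (adjusted p = 0.071, and 0.035 when the set letter was fitted as a replicate block). GlnRS lost its call without B-gal set C (0.26) or mts set A (0.24). LysRS, for lysine, stood at 0.28 with both PP2A dsRNAs. With mts dsRNA it was called, but not in the 2 groups alone or without B-gal set B (0.26) or C (0.21) or mts set A (0.26) or B (0.21). With Pp2A-29B dsRNA it was not called (adjusted p = 0.058), but passed with DESeq2 (adjusted p = 0.036), with RLE size factors, without a filter, without ribosomal RNA genes, with the replicate block and without B-gal set A. HisRS shares its start and 255 exon bases on the same strand with Bx, which encodes a transcription cofactor, and only 33.3% of its values were whole, so its count is uncertain; Bx itself stood at -0.27 (adjusted p = 0.12) with mts dsRNA.

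In animals 8 of these cytosolic genes encode members of the multisynthetase complex, a particle in which several synthetases are held together (GluProRS, IleRS, LeuRS, MetRS, GlnRS, LysRS, ArgRS and AspRS). With IntS4 and IntS6 dsRNA 4 and 3 of the 8 were called higher, against 9 and 9 of the 12 genes outside it, of which beta-PheRS was lower with IntS4. With mts and Pp2A-29B dsRNA 7 and 4 of the 8 were called higher, against 11 and 4 of the 12. Of all genes tested 27%, 26.4%, 26.6% and 21% were called higher with IntS4, IntS6, mts and Pp2A-29B dsRNA, and 20.2% lower with IntS4 dsRNA. The median log2 fold change of the 8 was 0.23, 0.18, 0.43 and 0.28 in the order IntS4, IntS6, mts, Pp2A-29B, and that of the 12 was 0.63, 0.52, 0.47 and 0.22. The 2 sets were formed with the results known and the difference between them was not tested.

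The mitochondrial gene that changed most was SerRS-m, which charges the mitochondrial serine tRNAs. It lies on chromosome 3R, 15340667 to 15343218, plus strand (dm6), as 1 merged exon of 2552 bases. Its level was 8.24, 8.88 and 7.52 CPM in Mock and 7.78, 9.25 and 7.68 CPM with B-gal dsRNA. With IntS4 dsRNA it was 2.85, 2.73 and 2.16 CPM and with IntS6 dsRNA 1.74, 2.10 and 1.91 CPM, every library of both groups far below the controls. With mts dsRNA it was 4.50, 5.57 and 5.91 CPM and with Pp2A-29B dsRNA 6.80, 6.13 and 5.44 CPM, also below all controls but above the IntS4 and IntS6 groups. These levels rest on 29 to 163 counts per library.

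The log2 fold changes of SerRS-m were -1.67 (SE 0.16, adjusted p = 5.6e-08) with IntS4, -2.11 (SE 0.16, adjusted p = 5e-09) with IntS6, -0.64 (SE 0.15, adjusted p = 0.0015) with mts and -0.43 (SE 0.14, adjusted p = 0.024) with Pp2A-29B dsRNA. The Pp2A-29B call was lost with DESeq2 (adjusted p = 0.057) and without B-gal set B (-0.34) or Pp2A-29B set B (-0.43) or C (-0.35); the other 3 passed under every alternative. Compared directly, mts dsRNA left SerRS-m higher than IntS4 by 1.04 (adjusted p = 3.8e-05) and higher than IntS6 by 1.47 (adjusted p = 1.2e-06). IntS6 against IntS4 was -0.43 and did not pass (adjusted p = 0.2). The cytosolic partner SerRS rose in the same libraries in which SerRS-m fell.

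SerRS-m lies within the span of Nagk (3R, 15337908 to 15343256), the gene of N-acetylglucosamine kinase, which is transcribed from the opposite strand; 356 bases of SerRS-m overlap annotated Nagk exons. Nagk rose where SerRS-m fell. Its level was 1.37, 1.36 and 0.445 CPM with B-gal dsRNA (20, 24 and 8 counts), 19.8, 17.3 and 15.3 CPM with IntS4 and 23.9, 17.4 and 23.8 CPM with IntS6 dsRNA. It was 2.83, 3.11 and 2.96 CPM with mts dsRNA and 2.53, 2.24 and 2.20 CPM with Pp2A-29B dsRNA, so that in all 4 groups every library exceeded the controls. The log2 fold changes were 4.06 (SE 0.25, adjusted p = 1.5e-10), 4.37 (SE 0.25, adjusted p = 6.2e-11), 1.502 (SE 0.29, adjusted p = 0.00032) and 1.16 with IntS4, IntS6, mts and Pp2A-29B dsRNA. Whether the change of one gene bears on the count or the RNA of the other was not tested.

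**Figure D4:**
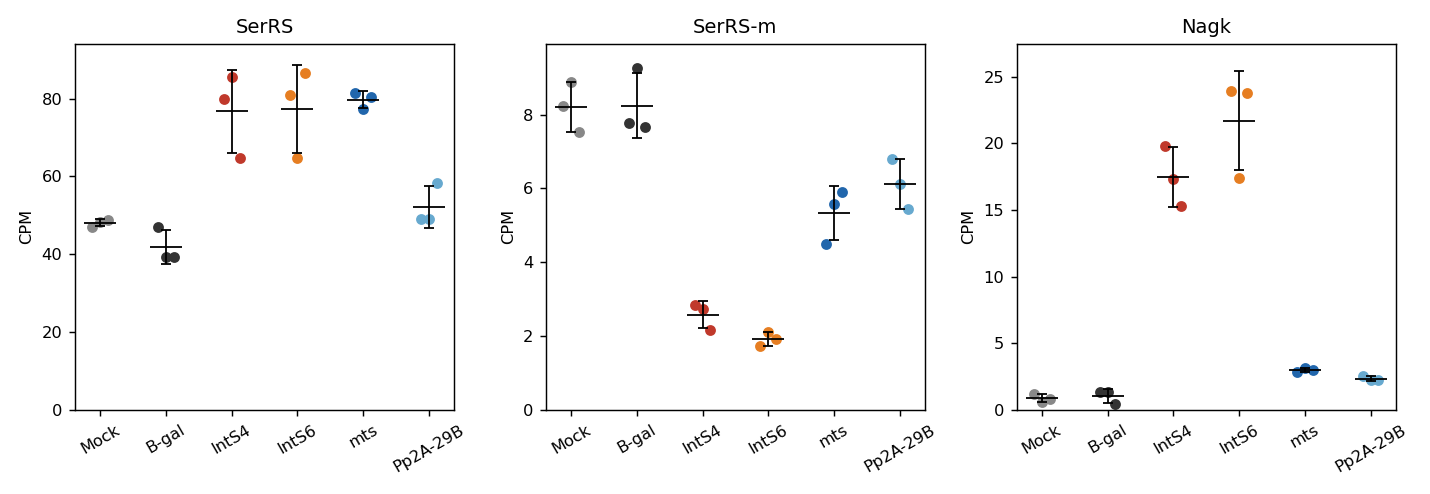
CPM of SerRS (cytosolic), SerRS-m (mitochondrial) and Nagk (opposite strand, spanning SerRS-m) in each library. Points are sets A, B and C, horizontal marks the mean and bars the SD (n = 3); SerRS-m falls from 8.24 with B-gal dsRNA to 1.92 with IntS6 dsRNA, while Nagk goes from 1.06 to 21.7 and SerRS from 41.8 to 77.4.

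TrpRS-m and TyrRS-m were the other mitochondrial genes called lower more than once, in 3 and 2 of the 4 comparisons, beside SerRS-m in all 4. Of all 8699 genes tested 14.1% were called lower in 2, 5.1% in 3 and 6.62% in 4. Of the 15 mitochondrial genes it was 1 each, so repeated lower calls were not particular to them. TrpRS-m (chromosome 3L, 17849727 to 17852453, plus strand) held 21.7, 22.3 and 23.4 CPM with B-gal dsRNA, 16.6, 17.3 and 14.3 CPM with IntS4 and 15.9, 18.98 and 15.0 CPM with IntS6 dsRNA, without overlap. It fell by 0.48 (SE 0.12, adjusted p = 0.0023) with IntS4 and 0.44 (SE 0.12, adjusted p = 0.005) with IntS6 dsRNA on the log2 scale, in both cases under every alternative, while cytosolic TrpRS rose. With Pp2A-29B dsRNA the change was -0.35 (adjusted p = 0.024), lost without B-gal set C (-0.32) or Pp2A-29B set B (-0.29) or C (-0.35), and with mts dsRNA -0.26 (adjusted p = 0.077).

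TyrRS-m, for tyrosine, held 5.60, 3.52 and 4.62 CPM with B-gal dsRNA, 2.89, 2.54 and 2.96 CPM with mts and 2.66, 2.64 and 3.50 CPM with Pp2A-29B dsRNA, on 35 to 84 counts per library. Neither group overlapped the controls, whose set B was close to them. The log2 changes were -0.70 (SE 0.20, adjusted p = 0.0061) with mts, a call that passed under every alternative, and -0.64 (adjusted p = 0.014) with Pp2A-29B dsRNA, lost without B-gal set A (-0.47) or Pp2A-29B set A (-0.57) or B (-0.57). IntS4 dsRNA gave -0.46 (adjusted p = 0.055) and IntS6 dsRNA -0.30 (adjusted p = 0.2).

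PheRS-m and AspRS-m, the most abundant mitochondrial genes per length, were called lower with Pp2A-29B dsRNA alone, by small amounts. PheRS-m held 19.99, 18.6 and 25.2 CPM with B-gal dsRNA and 17.1, 13.4 and 18.6 CPM with Pp2A-29B dsRNA, with Pp2A-29B set C level with B-gal set B, a change of -0.38 (adjusted p = 0.047; 0.065 with DESeq2) that was lost without B-gal set A (-0.42) or C (-0.24) or Pp2A-29B set A (-0.41) or B (-0.25). AspRS-m went from 54.5, 55.7 and 55.4 CPM to 48.4, 47.1 and 48.6 CPM, a change of -0.20 (SE 0.07, adjusted p = 0.03) that was lost without B-gal set B (-0.20) or C (-0.20) or any Pp2A-29B library (-0.21, -0.19 and -0.21 for sets A, B and C). LeuRS-m was the single mitochondrial gene called higher, at 0.36 with mts dsRNA (adjusted p = 0.046; 0.051 with DESeq2), from 8.05, 8.74 and 10.0 to 11.9, 9.24 and 13.4 CPM with overlapping libraries, and the call was lost without B-gal set A (0.29) or B (0.34) or mts set A (0.33) or C (0.24). The other 9 mitochondrial genes, for alanine, arginine, asparagine, cysteine, glutamate, isoleucine, methionine, proline and valine, were called in none of the 4 comparisons in the fit of all libraries; with standard errors up to 0.31, modest changes in the scarcer ones were not detectable at this depth. With the replicate block AlaRS-m (-0.27) and PheRS-m (0.31) also passed with IntS4 dsRNA, at adjusted p of 0.043 and 0.03. Leaving out single libraries added further calls: AlaRS-m (-0.36 without IntS4 set C), PheRS-m (0.45 without B-gal set C), AsnRS-m (-0.54 without B-gal set B) and TyrRS-m (-0.62 without B-gal set B) with IntS4, TrpRS-m (-0.35 without mts set C) with mts and CysRS-m (-0.56 without Pp2A-29B set B) with Pp2A-29B dsRNA. Among cytosolic genes not named above for this, HisRS (0.47 without IntS6 set B) and LeuRS (0.31 without IntS6 set C) were added with IntS6 and beta-PheRS (0.40 without B-gal set A) with Pp2A-29B dsRNA.

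Cytosolic and mitochondrial genes of the same amino acid can be set side by side in 16 pairs, counting GluProRS with both GluRS-m and ProRS-m and both phenylalanine subunits with PheRS-m. The cytosolic log2 fold change was above the mitochondrial one in 13 pairs with IntS4, 15 with IntS6, 16 with mts and 14 with Pp2A-29B dsRNA. The differences for asparagine were 1.07, 0.84, 1.07 and 0.69 in that order, since AsnRS rose and AsnRS-m stayed between -0.44 and 0.11 without a call. For aspartate they were 0.98, 1.00, 0.44 and 0.23. The pair of beta-PheRS and PheRS-m went the other way with IntS4 dsRNA, at -0.84. Differences between pairs were not tested.

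Single synthetase genes differed between the target dsRNA groups. mts against IntS4 dsRNA gave 5 cytosolic genes higher and 5 lower, where 22.4% of all genes were higher and 30% lower, and mts against IntS6 dsRNA gave 8 higher and 2 lower (all genes, 22% and 28.4%). The IntS4 counts are about the shares of all genes. In both, beta-PheRS, MetRS, AsnRS, GlnRS and LeuRS were higher with mts dsRNA and AspRS and TrpRS lower. AlaRS, GlyRS and CysRS were lower with mts than with IntS4 dsRNA (-0.38, -0.35 and -0.30). Of these calls 8 of 10 passed without each library against IntS4 and 5 of 10 against IntS6; those lost were CysRS (-0.21 to -0.30 without IntS4 set A or B or mts set A or B) and LeuRS (0.19 to 0.30 without IntS4 set A or C or mts set A or B) against IntS4, and 5 genes against IntS6. GlyRS against IntS4 was also lost without a filter on low counts (-0.27, adjusted p = 0.068). The 5 genes were TrpRS (-0.35 to -0.44, lost whichever library was left out), GlnRS (0.22 to 0.33 without IntS6 set B or C or mts set A), LysRS (0.23 to 0.29 without IntS6 set B or mts set A or B), HisRS (0.30 to 0.43 without IntS6 set A or B or mts set A or B) and LeuRS (0.28 without IntS6 set C or mts set B). Without IntS6 set B, mts set A or mts set B 6 cytosolic calls remained against IntS6. Among mitochondrial genes AlaRS-m was higher with mts than with IntS4 (0.48, adjusted p = 0.0028) and IntS6 dsRNA (0.38, adjusted p = 0.014; 0.26 without IntS6 set B, not called), as was SerRS-m. Against IntS4 AsnRS-m was also higher (0.55; 0.45 to 0.53 and not called without IntS4 set C or mts set A or B), and PheRS-m (-0.48; -0.40 and not called without mts set B) and AspRS-m (-0.18; not called with DESeq2 or without any library but IntS4 set C, -0.13 to -0.19) were lower. MetRS-m was higher against IntS6 (0.36; 0.29 to 0.37 and not called without IntS6 set A or B or mts set A or B, nor with DESeq2). In all, 3 mitochondrial genes were called higher and 2 lower against IntS4 (2 calls in all without mts set B and 3 without mts set A), and 3 higher and 0 lower against IntS6, where 0 reached an unadjusted p under 0.05 in the lower direction.

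Few of these genes were called between the IntS4 and IntS6 groups: IntS6 against IntS4 gave 0 cytosolic genes higher and 1 lower (GluProRS) and 0 mitochondrial genes in either direction, where 2.53% of all genes were called higher and 4.01% lower. Unadjusted, 3 cytosolic and 3 mitochondrial genes had a p under 0.05, all lower with IntS6 dsRNA, and DESeq2 called 1 and 0. The 2 PP2A groups differed more. Pp2A-29B against mts dsRNA gave 0 cytosolic genes higher and 8 lower, where 4.81% of all genes were higher and 4.94% lower, and the median cytosolic log2 difference was -0.25. AsnRS, SerRS (-0.61, adjusted p = 0.0039) and ValRS were lower without each library in turn; the other 5 were not. MetRS (-0.37) was lost without mts set A or B or Pp2A-29B set A (-0.34 to -0.38), ThrRS (-0.33) without set A or B of either group (-0.29 to -0.33), GluProRS (-0.32) without Pp2A-29B set A (-0.31), and AspRS (-0.33) and GlyRS (-0.32) whichever library was left out (-0.30 to -0.39 and -0.27 to -0.37), so that 4 calls were left without mts set A or B, 3 without Pp2A-29B set A and 5 without Pp2A-29B set B. CysRS-m (-0.70, adjusted p = 0.018) and AlaRS-m (-0.42, adjusted p = 0.035) were the 2 mitochondrial genes called lower. CysRS-m was lost without mts set A (-0.71) or C (-0.61) or Pp2A-29B set A (-0.61) and AlaRS-m without any library but Pp2A-29B set C (-0.35 to -0.45), so that 0 of them passed without mts set A or C or Pp2A-29B set A, and 1 without mts set B or Pp2A-29B set B. Same-lettered samples of these 2 groups deviated together, and with the replicate block GlnRS (-0.23), HisRS (-0.52) and LeuRS (-0.24) were called lower as well, at adjusted p of 0.047, 0.019 and 0.047.

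Other genes of translation and amino acid supply were read from 6 lists, chosen with earlier results of these data known. The shares of all genes tested, to read their counts against, are 27% higher and 20.2% lower with IntS4, 26.4% and 19.3% with IntS6, 26.6% and 24.8% with mts and 21% and 17.8% with Pp2A-29B dsRNA. Of 21 tested genes of amino acid synthesis and the response of the transcription factor ATF4 (crc in the fly), which in animals also drives several cytosolic synthetase genes, 14 were higher and 2 lower with IntS4, 13 and 2 with IntS6, 10 and 2 with mts and 9 and 2 with Pp2A-29B dsRNA. The medians were 0.55, 0.59, 0.28 and 0.28. AsnS, which makes asparagine, held 18.2, 18.4 and 18.6 CPM with B-gal dsRNA and 142.2, 140.0 and 145.6 CPM with IntS4 dsRNA. It rose by 2.95 (SE 0.09, adjusted p = 1e-14), 1.71, 0.68 and 0.29 (adjusted p = 0.014) with IntS4, IntS6, mts and Pp2A-29B dsRNA, a different order from AsnRS, which was highest with mts.

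Sesn, a stress-induced inhibitor of the TOR growth pathway, rose by 3.29, 3.17, 1.31 and 1.47 in the same order, each with an adjusted p of 3.4e-08 or less. chrb, a further TOR inhibitor, rose by 0.77, 0.73, 1.46 and 1.54, and Cbs, an enzyme of cysteine synthesis, by 0.65, 1.22 and 1.22 with IntS6, mts and Pp2A-29B dsRNA; the Cbs call with IntS4 dsRNA (0.33, adjusted p = 0.046) was lost with DESeq2 and without B-gal set B (0.30) or C (0.25) or IntS4 set B (0.36) or C (0.21). Nmdmc, a mitochondrial folate enzyme, rose by 1.18, 1.49 and 0.78 with IntS4, mts and Pp2A-29B dsRNA and stood at 0.13 with IntS6 dsRNA. Shmt, which converts serine to glycine, rose with IntS4 and IntS6 dsRNA (0.55 and 0.73) and fell with mts and Pp2A-29B dsRNA (-0.37 each). The RNA of crc itself was called in none of the 4 (-0.24 to 0.08).

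The cytosolic elongation factors, which work with charged tRNA at the ribosome, were lower or not called. Of 7 tested, 0 were higher in any comparison, and 2, 4, 3 and 3 were lower with IntS4, IntS6, mts and Pp2A-29B dsRNA, with medians of -0.42, -0.33, -0.37 and -0.46. By edgeR 3, 4, 3 and 4 of them had an unadjusted p under 0.05, and DESeq2 called 2, 4, 3 and 3. eEF1beta, the exchange factor, was lower in all 4 (-0.42, -0.61, -0.39 and -0.57), eEF1alpha1, which delivers charged tRNA to the ribosome, in 3 (-0.33, -0.42 and -0.51 from IntS6 on), and eEF2, which moves the ribosome along, with mts (-0.42) and Pp2A-29B dsRNA (-0.46). With IntS4 dsRNA the 2 calls, eEF1beta and eEF5 (-0.46), depended on single libraries: eEF1beta was lost without B-gal set A (-0.33) or IntS4 set C (-0.33), eEF5 without B-gal set A (-0.36) or B (-0.42) or IntS4 set A (-0.52) or C (-0.32), so that 0 were called without B-gal set A or IntS4 set C and 1 without B-gal set B. eEF1beta was also lost with mts dsRNA without B-gal set A (-0.30) or mts set C (-0.27), and eEF1alpha1 with IntS6 dsRNA without B-gal set A (-0.28) or B (-0.34) or IntS6 set B (-0.27), and the IntS6 count was 2 without B-gal set A or B.

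Of 8 synthetase partners (amidotransferase subunits, multisynthetase scaffolds, Slimp and Dtd), 0 were higher and 2 lower with IntS4 and with IntS6, 1 higher and 2 lower with mts and 0 higher and 1 lower with Pp2A-29B dsRNA. The lower share was near or below that of all genes, so nothing particular to the partners was shown. GatA, GatB and GatC form the amidotransferase that makes mitochondrial glutaminyl-tRNA, for which the table has no GlnRS-m. GatA held 5.32, 4.598 and 5.12 CPM with B-gal dsRNA and 1.75, 2.83 and 2.69 CPM with IntS4 dsRNA, and was lower with IntS4 (-1.03, SE 0.22, adjusted p = 0.00074) and IntS6 dsRNA (-0.86, adjusted p = 0.0031). GatC was lower with IntS4 (-0.56), IntS6 (-0.35; lost without B-gal set C, -0.31, or IntS6 set A, -0.31, or C, -0.27) and mts dsRNA (-0.42). GatB was lower with mts (-0.56; lost without B-gal set C, -0.48, or mts set A, -0.45, or B, -0.50) and Pp2A-29B dsRNA (-0.48; lost with DESeq2 and without B-gal set B or C or Pp2A-29B set A or B, -0.40 to -0.50). AIMP1, a scaffold of the multisynthetase complex, was the gene called higher with mts dsRNA (0.55, adjusted p = 0.039), lost without any library except B-gal set A (0.40 to 0.57). Slimp, a fly seryl-tRNA synthetase paralogue that binds SerRS-m, was called in none (-0.37 to 0.31). Unadjusted, 2, 2, 4 and 3 of the 8 partners had a p under 0.05 in the order IntS4, IntS6, mts, Pp2A-29B, and DESeq2 called 2, 1, 3 and 0.

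Of 13 mitochondrial translation factors 0 were higher and 1 lower in each comparison (unadjusted, 2, 2, 2 and 3 in either direction; DESeq2, 1, 1, 2 and 1), a share below that of all genes. The lower gene was mEFG1, the mitochondrial elongation factor G, with IntS4 (-0.77, SE 0.11, adjusted p = 1.1e-05) and IntS6 dsRNA (-0.49), and mTerf3, of the mitochondrial termination factor family, with mts (-1.32, SE 0.30, adjusted p = 0.0011) and Pp2A-29B dsRNA (-0.90; lost without B-gal set C, -0.80, or Pp2A-29B set B, -0.85). The list of mitochondrial transcription and tRNA processing held 9 tested genes, with 3 higher and 2 lower, 2 and 2, 2 and 4, and 3 and 2 in the order IntS4, IntS6, mts, Pp2A-29B; the 4 lower with mts dsRNA became 2 without mts set A or B. RNaseZ, which trims the tRNA 3′ end, rose with IntS4 (0.98, adjusted p = 8.5e-07) and IntS6 dsRNA (0.62). TFAM, which packages mitochondrial DNA, fell with IntS4, IntS6 and mts dsRNA (-0.85, -0.71 and -0.49). PolrMT, the mitochondrial RNA polymerase, fell in all 4 (-0.49, -0.49, -0.70 and -0.61). hebe had the highest changes of the list, 3.70 to 4.78. Of 12 genes of RNA polymerase III, which makes the tRNAs, and of tRNA biology, 1 was higher and 5 lower with IntS4, 0 and 3 with IntS6, 0 and 2 with mts and 1 and 2 with Pp2A-29B dsRNA; DESeq2 called 5, 3, 2 and 2 in all, and 6, 3, 3 and 6 had an unadjusted p under 0.05. The gene called higher was La, an RNA-binding protein of polymerase III transcripts, at 0.66 with IntS4 (adjusted p = 0.0018) and 0.41 with Pp2A-29B dsRNA (adjusted p = 0.044; lost in the 2 groups alone and without B-gal set B, 0.36, or C, 0.35, or Pp2A-29B set A, 0.33, or B, 0.31). The lower count with IntS4 dsRNA was 1 without B-gal set A or B and 3 without IntS4 set A or B, that with mts dsRNA 1 without B-gal set A or mts set A, and that with Pp2A-29B dsRNA 1 without B-gal set A or B or Pp2A-29B set A or C. Maf1, a repressor of that polymerase, was among the genes lower with IntS4 and IntS6 dsRNA (-0.45 and -0.48; with IntS4 dsRNA -0.36 and not called without B-gal set B).

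**Figure D5:**
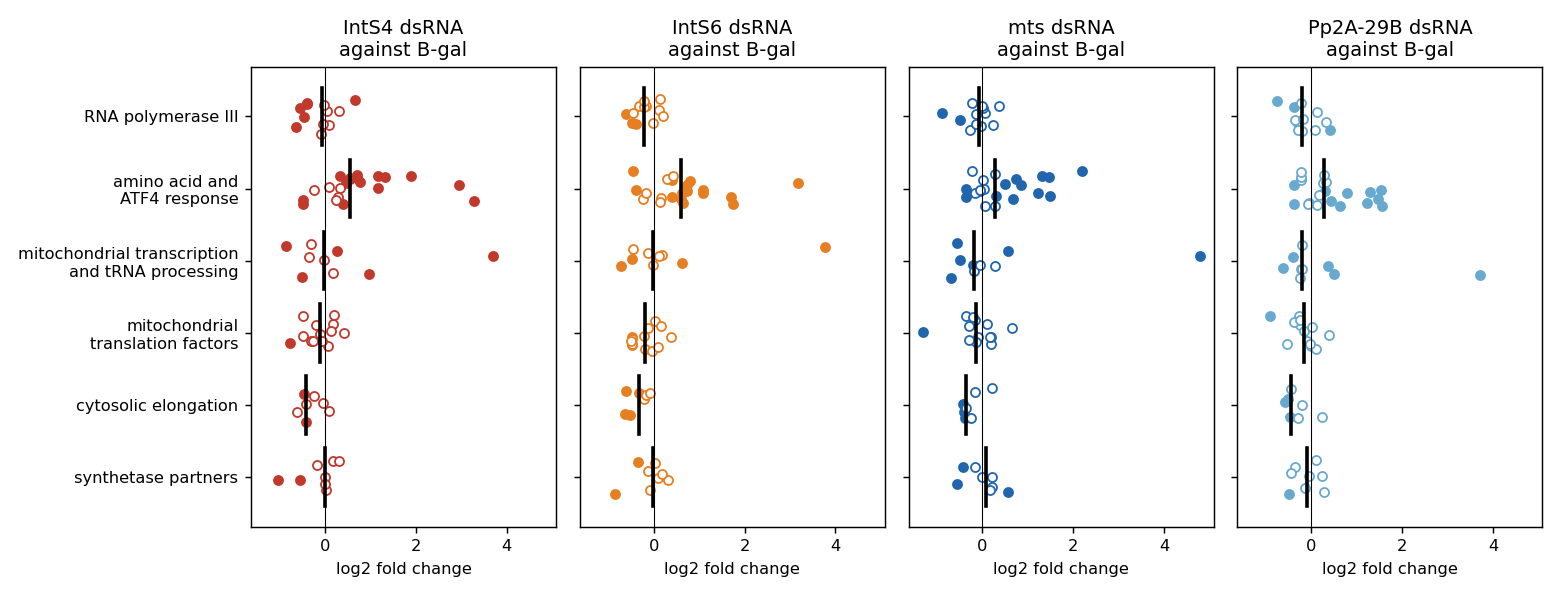
Log2 fold change against B-gal dsRNA of the tested genes of the 6 lists in each target dsRNA group. Each point is a gene, filled where its adjusted p is under 0.05, and black bars are list medians; the amino acid and ATF4 list has medians of 0.55, 0.59, 0.28 and 0.28 and the cytosolic elongation list of -0.42, -0.33, -0.37 and -0.46 from left to right.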

How the data were processed

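RNA was rRNA-depleted and sequenced strand-specifically, per the labels' protocols. The submitters' processing notes name Trimmomatic 0.39 and featureCounts and the builds dm6 and BDGP6; these notes and the labels name no aligner and no counting settings. The authors deposited estimated counts per gene and library; 90.1% of values were whole within 0.005, and all were rounded to whole numbers. Gene positions came from the Ensembl BDGP6 annotation (dm6 coordinates), which held 17626 of the 17753 IDs. edgeR 4.0.16 in R 4.3.3 fitted all 18 libraries in 1 model of 6 groups (TMM, filterByExpr with a minimum count of 10, quasi-likelihood F test, 12 residual degrees of freedom), with p-values adjusted by Benjamini-Hochberg over 8699 genes; SE was taken as the absolute log2 fold change over the root of F. CPM divides counts by the library total, ribosomal RNA included, times the TMM factor. The fit was checked on simulated counts.

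The members and lists were chosen with earlier results of these data known. Members are all accounted for; per-library values go to up to 4 called members with the highest and up to 4 with the lowest change per comparison and to their cytosolic or mitochondrial partners, and list genes are named from the 4 called with the smallest adjusted p per comparison. Neighbours of a named member are genes that overlap it or start within 1000 bases of it, and not all are described above. CG8578, near ArgRS, was called higher in all 4 comparisons (0.43, 0.48, 1.12 and 0.56 from IntS4 on). Kdm4B, near ValRS, was called lower in all 4 (-0.65, -0.46, -0.90 and -0.68). Plp, near GlyRS, was higher with IntS4 (1.05) and IntS6 dsRNA (0.83). CG17260, which overlaps SerRS, was higher with IntS6 (0.75) and mts dsRNA (0.76). Their bearing on the members was not tested. Slimp, crc and the values of named genes in comparisons where they fall outside this rule were chosen after their values were seen. Alternatives were DESeq2 1.42.0, its size factors in edgeR (RLE), leaving out 138 ribosomal RNA entries, no filter, the replicate set as a block, the 2 groups alone, and leaving out each library.

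Same-lettered libraries were taken as paired where all 3 correlations of their deviations from group means exceeded 0.1: B-gal with Mock (lowest 0.316), IntS4 with B-gal (0.224), IntS6 with B-gal (0.187) and Pp2A-29B with mts (0.102). The set letters come from the labels, which call the sets biological without saying how the cultures were kept apart, so p-values measure the spread between these sets.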

Additional observations from a re-analysis of the deposited data

How the results depend on the processing

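For the up to 8 members with the highest and lowest called changes against B-gal dsRNA in each group, 298 refits under all alternatives kept direction and call, and 26 lost the call with no change of sign, all with Pp2A-29B dsRNA (ArgRS, CysRS, SerRS-m, TrpRS-m, TyrRS-m and PheRS-m). The mitochondrial count with Pp2A-29B dsRNA (5) was 3 with DESeq2, 3 without ribosomal RNA genes, 1 without a filter and 1 in the 2 groups alone, and from 1 to 3 when each library was left out; the cause was not tested. The cytosolic count there (8) ran from 4 to 9 when libraries were left out. The mitochondrial count with IntS4 dsRNA (2) was 4 with the replicate block and from 2 to 4 without single libraries; the block moved no other count by over 1.5 times and ended no call of a member. In comparisons whose set letters did not pass as pairs (4 or 5 of 6 samples correlated best with their own letter) it added TrpRS with mts, beta-PheRS and LysRS with Pp2A-29B, alpha-PheRS, LysRS and HisRS for mts against IntS4, and LeuRS-m for mts against IntS6. For Pp2A-29B against mts the cytosolic count (8) ran from 3 to 7 and the mitochondrial count (2) from 0 to 2 without single libraries, the latter 1 in the 2 groups alone. For mts against IntS4 the mitochondrial count (5) ran from 2 to 5, and for mts against IntS6 the cytosolic count (10) from 6 to 10, while the mitochondrial count there (3) was 5 without ribosomal RNA genes. No scaling moved the median of all genes by over 0.1 (at most 0.084 on the log2 scale). Depth limits the mitochondrial genes, whose counts fell as low as 13 per library.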
